A study of Mus musculus with 14 samples.

Results

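The genes described here encode proteins of the complement and coagulation systems that the liver secretes into plasma, together with the inhibitors and the fibrinolytic enzymes that act on them. The set lists 40 genes, 19 of complement and 21 of coagulation, listed by name with earlier results of these data known. Of these, 39 had a probe with that gene symbol, and 37 had a probe that passed the detection filter, 17 of complement and 20 of coagulation. The filter asked for a detection p-value under 0.05 on 7 or more of the 14 arrays, and these 37 genes were tested among 8829 features in all. No probe is named here for C3, the central component of complement. The probe for C1ra, a protease of the C1 complex, was detected on 0 arrays, with intensities between -5 and 2. The probe for Fgb, the fibrinogen beta chain, was detected on 1 array, with intensities between -10 and 8, so these probes gave no usable level. The probe for albumin (Alb) was likewise detected on only 4 of 14 arrays, with intensities between 2 and 31.

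Liver RNA of male C57Bl/6J mice was hybridised, 7 arrays for a diet containing sucrose and 7 for an isocaloric diet containing palatinose. Sucrose and palatinose (isomaltulose) are isomers made of the same glucose and fructose, joined by different bonds. The labels give 22 weeks of feeding in the titles and an age of 18 weeks, and the files do not settle which holds. Levels are log2 intensities of Illumina beadchips after background correction and quantile normalization, and a difference is palatinose minus sucrose. No other agent or allele is named for either group, and the titles call each sample a biological replicate.

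Complement is a cascade of plasma proteases that marks microbes and damaged cells and builds a pore in their membranes. It starts from antibody through C1, from sugars through mannose-binding lectins, or spontaneously through the alternative pathway, and all routes meet at C3. Coagulation is a second protease cascade, in which thrombin turns fibrinogen into fibrin, and plasmin later dissolves it. Hepatocytes make most of these proteins, while C1q is known to come mainly from macrophages.

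Most hepatocyte markers matched the labelled tissue: 9 of the 12 listed were kept and tested. Among them Apoa1, Ttr, Trf and Hnf4a were each detected on all 14 arrays. Of the others, Tat was detected on 0 arrays and Alb on 4. Each array detected 11457 to 12476 probes. Array SUC_424_02 stood apart: its mean intensity was 257 against 190 to 215 on the other arrays, and its median deviation from the other sucrose arrays was 0.24 against 0.10 to 0.15. It held the highest or the lowest value of 44.5% of all features and of 22 of the 37 genes. Over 50% of the muscle markers or of the pancreas markers were detected on 5 arrays, SUC_415_02, SUC_421_03, PAL_407_04, PAL_417_03 and PAL_429_03. Values that changed by over 1.5 times without SUC_424_02 or without these 5 arrays are given both ways for the genes described by array. Without these 5, 9 arrays were left, with SUC_424_02 among them. Leaving out SUC_424_02 as well was an alternative added after seeing the data.

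None of the 37 genes was called between the diets at an adjusted p under 0.05 by limma, as was true of all 8829 features (0% called). At an unadjusted p under 0.05, 1 of the 37 passed, beside 627 of 8829 features (7.10%). Of the 37 genes, 17 were higher and 20 lower with palatinose, with a median difference of -0.0044, beside 0.014 and 54.8% higher over all features. The complement genes had 8 higher and 9 lower, with differences from -0.32 to 0.15, and the coagulation genes 9 higher and 11 lower, from -0.26 to 0.17. For 33 of the 37 genes the 95% interval excluded differences of 1.5-fold or more, beside 8413 of 8829 features. In every one of the 37 genes the values of both diets overlapped, and overlap was not counted over all features.

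**Figure D1:**
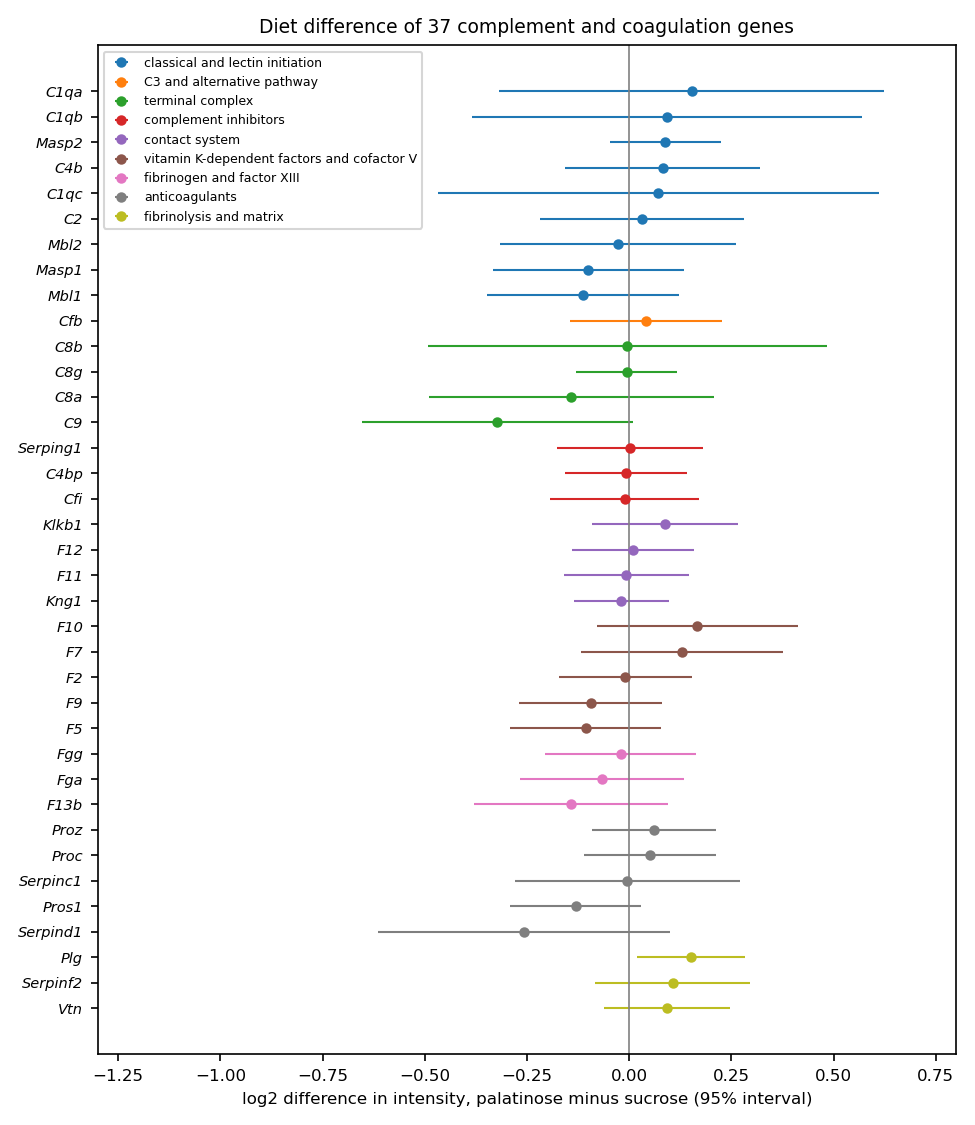
Diet difference of the 37 tested complement and coagulation genes (palatinose minus sucrose, log2 intensity, points) with 95% confidence intervals (lines), coloured by role. The interval of Plg alone lies above 0, and that of C9 reaches furthest below it, to -0.65.

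The classical and lectin routes gave 6 higher and 3 lower of 9 tested genes, with 0 at an unadjusted p under 0.05. C1q is built of 3 chains, encoded by C1qa, C1qb and C1qc, which neighbour each other in the genome. C1qa ran from 6.63 through a median of 6.83 to 7.67 with sucrose, and from 6.34 through 7.20 to 8.03 with palatinose. For C1qb the sucrose arrays spanned 8.12, 8.38 and 9.05 (lowest, median, highest), and the palatinose arrays 7.62, 8.49 and 9.42. C1qc spanned 7.61, 8.05 and 8.84 with sucrose, and 7.23, 8.17 and 9.23 with palatinose. Palatinose arrays held both the highest value of each chain, on PAL_430_01, and the lowest, on PAL_429_03, so that the sucrose range lay inside the palatinose range. The diet differences were 0.15 (-0.32 to 0.62) for C1qa, 0.09 (-0.38 to 0.57) for C1qb and 0.07 (-0.47 to 0.61) for C1qc. Without PAL_430_01 they turned to -0.0067, -0.06 and -0.11, and without the 5 arrays with muscle or pancreas markers they were 0.40, 0.33 and 0.26. Without SUC_424_02 they were 0.11, 0.09 and 0.11.

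The C1q chains varied between mice more than most features and did so together. Their SD within a diet was 0.48, 0.48 and 0.55, at the 97.5th, 97.6th and 98.4th percentile of all features. Over the 14 arrays C1qb and C1qc correlated at r = 0.98 and rho = 0.94, C1qa and C1qb at r = 0.96 and rho = 0.96, and C1qa and C1qc at r = 0.93 and rho = 0.85. Each Pearson correlation had a permutation p of 1e-05, the smallest that 100000 resamples can give, and 7.67e-05 after adjustment over the 23 pairs tested. The adjusted permutation p of rho was 0.000115 for C1qa with C1qb and for C1qb with C1qc, and 0.00176 for C1qa with C1qc. Without the 2 arrays farthest from the median of the first chain, r was 0.92, 0.84 and 0.95 for C1qa with C1qb, C1qa with C1qc, and C1qb with C1qc. Within the palatinose arrays r was 0.97, 0.99 and 0.99 in the same order, and within the sucrose arrays 0.94, 0.79 and 0.93. The rank correlation of C1qa with C1qc within sucrose was 0.43 (exact permutation p = 0.354), where SUC_424_02 had the lowest C1qa and the second highest C1qc.

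Markers of macrophages moved with the C1q chains. Of 11 such markers with a named probe, 8 to 9 were detected on each array, while Cd5l and Cybb were detected on 0 arrays. Their summed intensity ran from 1319 to 2821 on the sucrose arrays and from 953 to 3450 on the palatinose arrays. After the diet mean was removed, C1qb correlated at 0.92 with Vsig4, 0.93 with Aif1, 0.87 with Adgre1 and 0.85 with Clec4f, which marks Kupffer cells, the macrophages of the liver. The range for C1qb over the 9 kept markers was -0.33 for Cd163 to 0.93 for Aif1, as a description over 14 arrays that share their normalization. The part of macrophage content in the C1q values was not tested, and in bulk tissue fewer cells of a type and less RNA per cell cannot be told apart. By diet, 3 of the 9 markers were higher and 6 lower, 0 of them at an unadjusted p under 0.05.

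**Figure D2:**
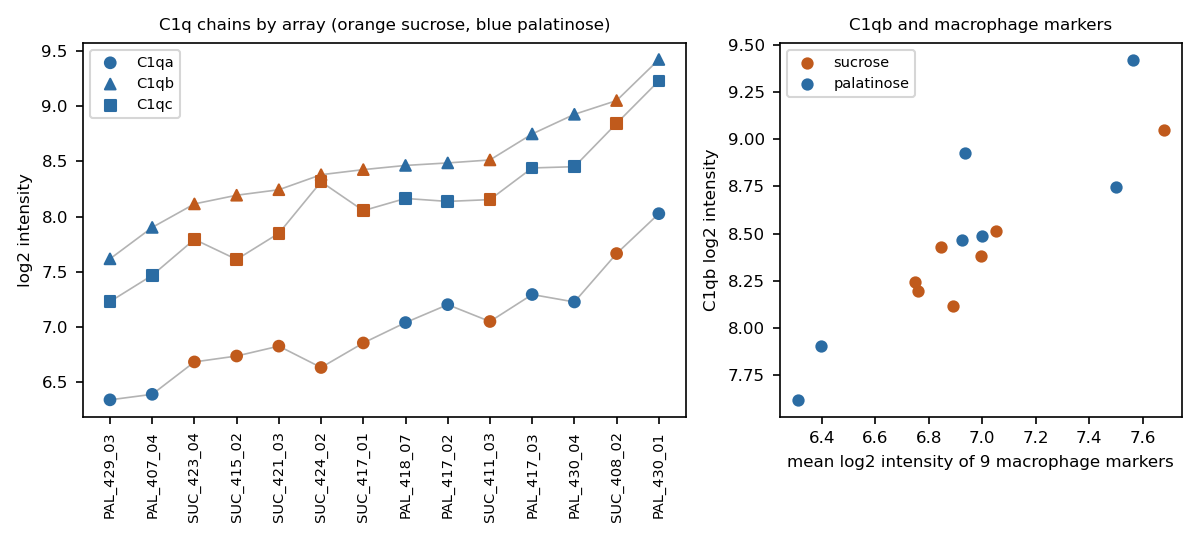
Left, log2 intensity of C1qa, C1qb and C1qc on each of the 14 arrays, ordered by C1qb (orange sucrose, blue palatinose); right, C1qb against the mean log2 intensity of 9 macrophage markers, 1 point per array. The 3 chains are lowest on PAL_429_03 and highest on PAL_430_01, C1qa is low for its C1qc on SUC_424_02, and both diets are spread along the range.

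The promoters of neighbouring genes are shown because these pairs were set side by side across mice, starting with C1qb and C1qc, the C1q genes for which RefSeq gave a promoter. RefSeq sequences (GRCm38.p6) of 250 bases before to 50 after the start were matched for 27 of the 37 genes and searched on both strands. The motifs were GAGGAAG for PU.1, a factor of myeloid cells, GTTAAT for HNF1, CAAAGTC for HNF4 and TTGCNNAA for C/EBP, which act in hepatocytes. Capitals mark a match, and no 2 of the printed matches overlap. C1qb lies at chr4:136886151-136886450 and C1qc at chr4:136892865-136893164, both on the minus strand.
C1qb: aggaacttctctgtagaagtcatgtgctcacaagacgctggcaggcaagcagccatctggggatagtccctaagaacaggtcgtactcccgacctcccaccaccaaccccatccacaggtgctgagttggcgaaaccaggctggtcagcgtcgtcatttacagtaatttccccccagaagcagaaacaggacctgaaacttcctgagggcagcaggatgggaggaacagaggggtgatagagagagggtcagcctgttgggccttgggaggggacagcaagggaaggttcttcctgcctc
C1qc: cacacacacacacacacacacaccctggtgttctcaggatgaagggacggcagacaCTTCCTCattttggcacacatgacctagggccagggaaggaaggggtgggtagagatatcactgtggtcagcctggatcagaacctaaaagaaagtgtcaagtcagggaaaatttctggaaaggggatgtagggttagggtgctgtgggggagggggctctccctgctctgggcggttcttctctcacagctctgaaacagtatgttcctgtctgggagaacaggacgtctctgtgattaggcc
The C1qc promoter held CTTCCTC, the PU.1 letters on the opposite strand, at position -194 from the start, and the C1qb promoter held none of the 4 motifs. GAGGAAG was present in 1 of the 27 promoters of the set, beside 13.6% of all 32851 promoters. The HNF1 letters were in 8 of the 27 beside 7.10% of all, those of C/EBP in 6 beside 10.8% and those of HNF4 in 1 beside 4.44%. The promoters with the HNF1 letters were those of C4bp, C8a, C8b, F2, F13b, Fga, Proz and Vtn, and those with the C/EBP letters were C9, F9, F11, Fga, Klkb1 and Serpinc1.

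Mannose-binding lectins recognise sugars on microbes and carry the proteases Masp1 and Masp2. Mbl1 ran from 9.94 through 10.15 to 10.67 with sucrose and from 9.72 through 10.09 to 10.29 with palatinose. The diets overlapped, and the top value was that of SUC_424_02. The difference was -0.11 (-0.35 to 0.12), or -0.03 without that array. It was -0.22 without the 5 arrays with muscle or pancreas markers and -0.09 without these and SUC_424_02. Mbl2 averaged 10.72 ± 0.32 with sucrose and 10.70 ± 0.23 with palatinose (SD, n = 7 each), a difference of -0.03. Masp2, which cleaves C4 and C2, had one of the 4 smallest p-values among the genes higher with palatinose. Its sucrose values were 10.49, 10.72 and 10.81 (lowest, median, highest) and its palatinose values 10.67, 10.81 and 10.84. Masp2 was above the sucrose mean on 6 of the 7 palatinose arrays, but the difference of 0.09 (-0.05 to 0.22) had an unadjusted p of 0.185 and an adjusted p of 0.779 by limma. Without SUC_424_02 the difference was 0.06. The other kept probes of Masp2 gave differences of 0.08 and -0.21. Masp1 averaged 9.31 ± 0.18 with sucrose and 9.21 ± 0.25 with palatinose, and the difference of -0.10 was -0.02 without PAL_430_01 and -0.23 without the arrays with muscle or pancreas markers.

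C4b and C2 supply the parts of the convertase that both routes build. C4b averaged 12.06 ± 0.30 with sucrose and 12.14 ± 0.11 with palatinose, and C2 averaged 10.74 ± 0.26 and 10.77 ± 0.21. Their differences of 0.08 (-0.16 to 0.32) and 0.03 (-0.22 to 0.28) both lost their sign without SUC_424_02, at -0.02 each. Mouse C4b has a close copy, C4a, and whether the probe tells them apart was not tested. C2 and C4b correlated over the 14 arrays at r = 0.61 (permutation p = 0.0118, adjusted p = 0.0454) and rho = 0.59 (adjusted permutation p = 0.113). Without the 2 arrays farthest from the median of C2 the r was 0.32. It was 0.85 within sucrose and -0.01 within palatinose, so the relation did not hold within palatinose. Cfb, the protease of the alternative pathway and a neighbour of C2, averaged 10.57 ± 0.15 and 10.61 ± 0.18 in the same order, and differed by 0.04 (-0.14 to 0.23). Its correlation with C2 after removal of the diet mean was -0.24.

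The 4 genes of the terminal complex were all lower with palatinose, C8g and C8b by less than 0.01, and 0 of the 4 passed an unadjusted p under 0.05. C9 polymerises into the membrane pore. C9 ran from 11.12 through 11.61 to 12.03 with sucrose and from 10.86 through 11.18 to 11.82 with palatinose, and 6 of the 7 palatinose arrays were below the sucrose mean. The groups overlapped, with the lowest value on PAL_418_07 and the highest on SUC_424_02. The difference of -0.32 (-0.65 to 0.01) had an unadjusted p of 0.0552 and an adjusted p of 0.705 by limma. Without the 5 arrays with muscle or pancreas markers it was -0.65, with an adjusted p of 0.208 by limma, and without SUC_424_02 it was -0.24. Without these 5 and SUC_424_02 it was -0.55. The other 2 kept probes of C9 gave -0.20 and 0.07. C8a averaged 9.57 ± 0.34 with sucrose and 9.43 ± 0.35 with palatinose. The difference of -0.14 was -0.03 without SUC_424_02, -0.43 without the 5 arrays and -0.27 without these and SUC_424_02. The light chain gene C8g had little spread, at 12.83 ± 0.07 in both diets. C8b averaged 10.31 ± 0.45 and 10.31 ± 0.54, and differed by -0.32 without the 5 arrays and by -0.47 without these and SUC_424_02.

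Across mice C9 and C8a correlated at r = 0.77 (permutation p = 0.00116, adjusted p = 0.00534) and rho = 0.66 (adjusted permutation p = 0.0561). The r was 0.76 without the 2 arrays farthest from the median of C9, 0.67 without SUC_424_02, 0.79 within sucrose and 0.76 within palatinose. C8a and C8b, which neighbour each other in the genome, gave r = 0.39 and rho = 0.53 over 14 arrays (adjusted permutation p of 0.262 and 0.153). Without SUC_424_02 their r was 0.90 (adjusted permutation p = 0.000575). On that array C8a was the highest of all at 10.24 while C8b, at 9.65, lay near its lowest value. Within palatinose the r was 0.95, and within sucrose -0.29.

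**Figure D3:**
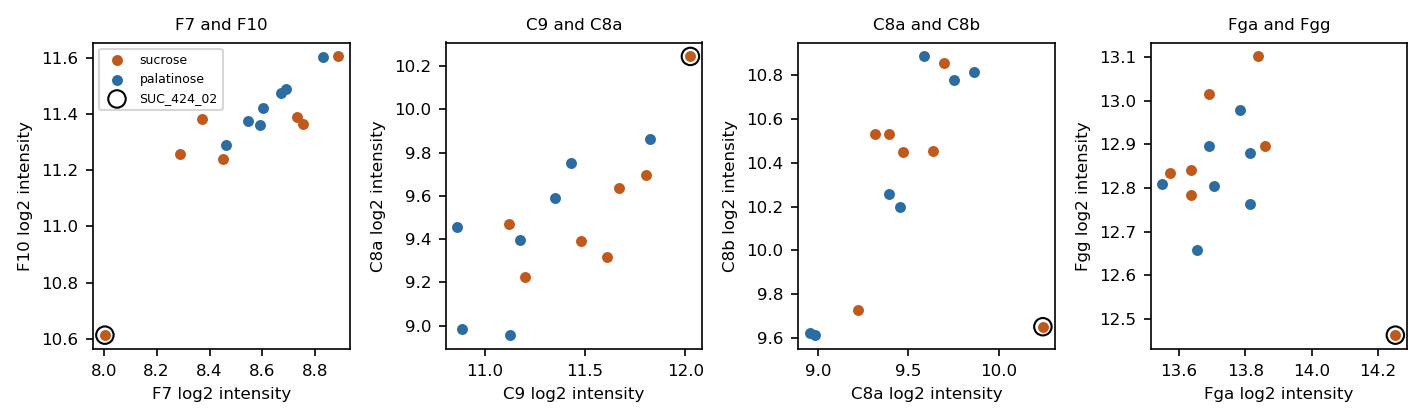
Log2 intensities of 4 pairs of genes on the 14 arrays (orange sucrose, blue palatinose), with SUC_424_02 ringed. F7 and F10 rise together with and without the ringed array, while for C8a with C8b and Fga with Fgg the r was 0.39 and -0.40 with it and 0.90 and 0.44 without it.

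Over all arrays the complement inhibitors differed by about 0.01 or less between diets. Cfi, which cleaves C3b and C4b, averaged 12.29 ± 0.14 with sucrose and 12.28 ± 0.17 with palatinose. C4bp, its cofactor, averaged 11.29 ± 0.11 and 11.28 ± 0.11, and Serping1, the C1 inhibitor, 12.63 ± 0.15 and 12.63 ± 0.16. The widest of the 3 intervals was that of Cfi, from -0.19 to 0.17. Without the 5 arrays with muscle or pancreas markers the difference was -0.16 for Serping1, -0.05 for Cfi and 0.02 for C4bp. C4b and Serping1 correlated at r = 0.40 (adjusted permutation p = 0.259) over all arrays and at 0.68 without SUC_424_02 (adjusted permutation p = 0.0363).

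The contact system starts the intrinsic route of clotting on a charged surface. Of its 4 genes 2 were higher and 2 lower. Klkb1, which encodes prekallikrein, averaged 10.40 ± 0.14 with sucrose and 10.48 ± 0.17 with palatinose. The difference was 0.09 (-0.09 to 0.27), and 0.05 without SUC_424_02. It was 0.0050 without the 5 arrays with muscle or pancreas markers and -0.05 without these and SUC_424_02. F12 averaged 11.59 ± 0.12 and 11.60 ± 0.10, and F11, a neighbour of Klkb1, 9.43 ± 0.08 and 9.42 ± 0.15. A dimmer probe of F11 gave -0.31 and a dimmer probe of F12 gave -0.22, beside -0.0073 and 0.0097 on the tested probes. In a limma fit over all kept probes the unadjusted p of these dimmer probes was 0.00504 and 0.0198. Among all features tested, 7.10% had an unadjusted p under 0.05. The dimmer F11 probe lay near background, at a mean log2 of 4.86, beside 9.42 on the tested probe and 4.28 on the Fgb probe. Its r with the other F11 probes was 0.23 and 0.05. The dimmer F12 probe had a mean log2 of 9.21, beside 11.60 on the tested probe. Kng1, the gene of high-molecular-weight kininogen, averaged 14.25 ± 0.06 and 14.23 ± 0.05. Its intensities of 17590 to 20606 lay close to the highest intensity of the arrays, 21522 to 24012, where little spread can be seen. F11 and Klkb1 gave r = 0.30 (adjusted permutation p = 0.395) over 14 arrays, -0.68 within sucrose (exact permutation p = 0.0835) and 0.76 within palatinose (exact permutation p = 0.0381).

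The vitamin K-dependent factors and their cofactor factor V gave 2 genes higher and 3 lower. F7 starts the extrinsic route and F10 makes the enzyme that activates prothrombin. F10 ran from 10.61 through 11.37 to 11.61 with sucrose and from 11.29 through 11.42 to 11.60 with palatinose. All 7 palatinose arrays lay above the sucrose mean, yet they fell inside the sucrose range, whose low end was SUC_424_02. The difference was 0.17 (-0.08 to 0.41; unadjusted p = 0.169, adjusted p = 0.768 by limma), and 0.06 without SUC_424_02. F7 averaged 8.50 ± 0.31 with sucrose and 8.63 ± 0.12 with palatinose, and the difference was 0.13 (-0.12 to 0.38), and 0.05 without that array. F2, prothrombin, averaged 12.23 ± 0.15 and 12.22 ± 0.11. F9 averaged 11.92 ± 0.17 and 11.83 ± 0.12, a difference of -0.09, which was -0.04 without SUC_424_02 and -0.21 without the 5 arrays. F5 averaged 8.51 ± 0.10 and 8.40 ± 0.20, a difference of -0.11 (-0.29 to 0.08), which was -0.17 without PAL_407_04 and -0.20 without the arrays with muscle or pancreas markers.

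F7 and F10 are neighbours in the genome, and their levels moved together across mice. Over the 14 arrays r was 0.88 (permutation p = 3e-05, adjusted p = 0.000172) and rho was 0.81 (adjusted permutation p = 0.0042). It was 0.78 without the 2 arrays farthest from the median of F7, 0.82 without SUC_424_02, 0.86 within sucrose (exact permutation p = 0.00417) and 0.98 within palatinose (exact permutation p = 0.000794). Proz, on the other side of F10, gave 0.05 with F10 after removal of the diet mean. The promoters of the correlated pair are F7 at chr8:13025784-13026083 and F10 at chr8:13037058-13037357, both on the plus strand, from RefSeq (GRCm38.p6).
F7: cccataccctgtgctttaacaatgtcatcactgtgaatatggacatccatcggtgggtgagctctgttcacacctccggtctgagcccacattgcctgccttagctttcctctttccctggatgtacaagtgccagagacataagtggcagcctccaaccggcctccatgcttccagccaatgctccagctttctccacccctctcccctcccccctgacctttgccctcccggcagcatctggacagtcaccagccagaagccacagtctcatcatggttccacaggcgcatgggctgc
F10: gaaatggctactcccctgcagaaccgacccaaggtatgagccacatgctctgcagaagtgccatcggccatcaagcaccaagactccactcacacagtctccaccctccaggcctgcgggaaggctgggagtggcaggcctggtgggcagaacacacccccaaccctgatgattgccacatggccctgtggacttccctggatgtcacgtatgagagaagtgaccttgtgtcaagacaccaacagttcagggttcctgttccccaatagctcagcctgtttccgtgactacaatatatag
None of the 4 motifs searched is in either window, so no base is in capitals. The F7 window lies inside the F7 gene, which starts at 13025506 in RefSeq, so the bases before that start are not in it.

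Fibrinogen is a hexamer of alpha, beta and gamma chains, which thrombin turns into fibrin, and factor XIII cross-links it. Fga, the alpha chain, ran from 13.57 through 13.69 to 14.25 with sucrose and from 13.55 through 13.71 to 13.82 with palatinose. Fgg, the gamma chain, ran from 12.46 through 12.84 to 13.10 with sucrose and from 12.66 through 12.81 to 12.98 with palatinose. The sucrose array SUC_424_02 was the highest of all for Fga and the lowest of all for Fgg, and otherwise the diets covered the same range. The differences were -0.07 (-0.27 to 0.13) for Fga and -0.02 (-0.21 to 0.16) for Fgg, and without SUC_424_02 they were 0.01 and -0.09. Without the 5 arrays with muscle or pancreas markers that of Fga was -0.19, and without these and SUC_424_02 it was -0.09. F13b, the carrier subunit of factor XIII, ran from 10.13 through 10.43 to 11.02 with sucrose and from 10.04 through 10.39 to 10.43 with palatinose. All 7 palatinose values of F13b lay below the sucrose mean, which SUC_424_02 raised. The difference was -0.14 (-0.38 to 0.10, unadjusted p = 0.225, adjusted p = 0.796 by limma), and -0.05 without SUC_424_02. It was -0.27 without the 5 arrays with muscle or pancreas markers and -0.16 without these and SUC_424_02.

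Fga and Fgg gave r = -0.40 and rho = 0.13 over 14 arrays (adjusted permutation p of 0.259 and 0.839). Without SUC_424_02 their r was 0.44 (adjusted permutation p = 0.231), and within palatinose it was 0.35. Both probes of Fga were high on that array, by 0.55 and 0.41 above the other sucrose arrays. The promoters of this neighbouring pair, Fga at chr3:83025903-83026202 and Fgg at chr3:83007474-83007773 on the plus strand (RefSeq, GRCm38.p6), are shown because the 2 genes went opposite ways on that array.
Fga: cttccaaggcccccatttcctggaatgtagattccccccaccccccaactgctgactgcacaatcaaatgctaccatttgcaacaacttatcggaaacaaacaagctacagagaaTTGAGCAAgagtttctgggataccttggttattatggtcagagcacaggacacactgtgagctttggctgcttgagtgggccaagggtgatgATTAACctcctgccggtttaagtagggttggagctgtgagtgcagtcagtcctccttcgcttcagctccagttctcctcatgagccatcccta
Fgg: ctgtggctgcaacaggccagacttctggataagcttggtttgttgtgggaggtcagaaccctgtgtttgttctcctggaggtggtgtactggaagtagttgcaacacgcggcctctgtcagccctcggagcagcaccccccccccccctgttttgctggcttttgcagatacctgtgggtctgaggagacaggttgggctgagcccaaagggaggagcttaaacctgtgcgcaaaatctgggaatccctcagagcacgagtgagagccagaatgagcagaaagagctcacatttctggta
In Fga the capitals mark the HNF1 letters ATTAAC at position -43 from the start and the C/EBP letters TTGAGCAA at position -135, both read on the opposite strand. The Fgg window held none of the 4 motifs.

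The natural anticoagulants gave 2 genes higher and 3 lower. Serpind1, heparin cofactor II, ran from 9.89 through 10.32 to 11.37 with sucrose and from 9.84 through 10.15 to 10.27 with palatinose. Its top value on SUC_424_02 lay 1.14 above the mean of the other sucrose arrays, and all 7 palatinose values were below the sucrose mean. The difference of -0.26 (-0.61 to 0.10, unadjusted p = 0.147, adjusted p = 0.759 by limma) was -0.09 without SUC_424_02. It was -0.41 without the arrays with muscle or pancreas markers and -0.18 without these and SUC_424_02. Pros1, protein S, ran from 9.12 through 9.36 to 9.54 with sucrose and from 9.02 through 9.21 to 9.43 with palatinose, with 6 of 7 palatinose values below the sucrose mean and much overlap. Its difference was -0.13 (-0.29 to 0.03; unadjusted p = 0.103, adjusted p = 0.733 by limma) and stayed between -0.17 and -0.10 over 28 alternatives. Proc, protein C, averaged 11.98 ± 0.12 with sucrose and 12.03 ± 0.14 with palatinose. Proz, protein Z, averaged 9.93 ± 0.14 and 9.99 ± 0.09. Serpinc1, antithrombin, averaged 8.53 ± 0.32 and 8.53 ± 0.19, a difference of -0.0042, which was -0.12 without SUC_424_02.

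All 3 genes of fibrinolysis and matrix were higher with palatinose, and Plg alone passed an unadjusted p under 0.05, beside 3.75% of all features in that direction. Plg encodes plasminogen, the precursor of the enzyme that dissolves fibrin. Plg ran from 12.69 through 12.82 to 12.99 with sucrose and from 12.91 through 12.99 to 13.01 with palatinose. All 7 palatinose arrays were above the sucrose mean, and the top of the sucrose range overlapped them. The difference was 0.15 (0.02 to 0.28; unadjusted p = 0.0276, adjusted p = 0.681 by limma) and 0.13 without SUC_424_02. The other 2 kept probes of Plg gave -0.12 and -0.11, and the mean of its probes -0.03, so the direction rested on the brightest probe. With cyclic loess or median scaling the difference was 0.10 and 0.09. Its unadjusted p was no longer under 0.05 in these fits, with the mean of probes, with the replicate number as a block on the authors' values, or without SUC_411_03, without SUC_415_02 or without the 5 arrays with muscle or pancreas markers.

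Vtn encodes vitronectin, which holds the inhibitor of plasminogen activation and also blocks the terminal complement pore. Vtn ran from 13.03 through 13.24 to 13.46 with sucrose and from 13.25 through 13.38 to 13.41 with palatinose. The palatinose values sat inside the sucrose range and 6 of the 7 were above its mean. The difference was 0.09 (-0.06 to 0.25, unadjusted p = 0.223, adjusted p = 0.796 by limma), and 0.05 without SUC_424_02. It was 0.03 without the 5 arrays with muscle or pancreas markers and -0.04 without these and SUC_424_02. Serpinf2, antiplasmin, averaged 12.11 ± 0.18 with sucrose and 12.21 ± 0.15 with palatinose, and the difference was 0.11 (-0.08 to 0.30), and its other 2 probes gave 0.13 and 0.19. Without PAL_430_01 that difference was 0.05. Plg and Serpinf2 correlated at r = 0.53 (adjusted permutation p = 0.12) over 14 arrays and at 0.75 without SUC_424_02 (adjusted permutation p = 0.0164).

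On SUC_424_02 the genes of the set went both ways. The values of 9 genes were above those of all other arrays: C8a, C9, F9, F13b, Fga, Kng1, Masp1, Mbl1 and Serpind1. The values of 13 were below all others: C2, C4b, F2, F7, F10, F12, Fgg, Klkb1, Masp2, Plg, Proc, Serpinc1 and Vtn. Of all 8829 features, 1724 were above and 2207 below all other arrays there. Against the other sucrose arrays Serpinc1 was lower by a difference of -0.80, F10 by -0.76 and C4b by -0.68, while C8a was higher by 0.79 and F13b by 0.64. The split depended on the scaling: with median scaling 17 genes were above and 3 below all others (C4b, F10 and Serpinc1), and with cyclic loess 8 and 6. No gene of the set turned from above to below under these scalings, and all features were not counted under them. The muscle and pancreas markers were near background on that array, at 1 of 13 and 2 of 15 detected, and the summed intensity of the 18 acute-phase genes with a named probe was 117865, beside 75576 to 111509 on the other arrays. The mean log2 intensity of these acute-phase genes, 9.81, lay inside the range of the other arrays, 9.12 to 9.96. Stellate cell markers were detected in 11 of 12 on SUC_424_02 with a summed intensity of 8768, beside 6 to 10 and 4214 to 7014 on the other arrays. Endothelial markers summed to 3873 there, beside 2376 to 3462. The mean log2 intensity on SUC_424_02 was 6.97 for stellate markers, beside 6.49 to 7.15 on the other arrays. For endothelial markers it was 7.08, beside 6.67 to 7.20, so both lay inside the range of the other arrays. The part of these cells and genes in the pattern was not tested.

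**Figure D4:**
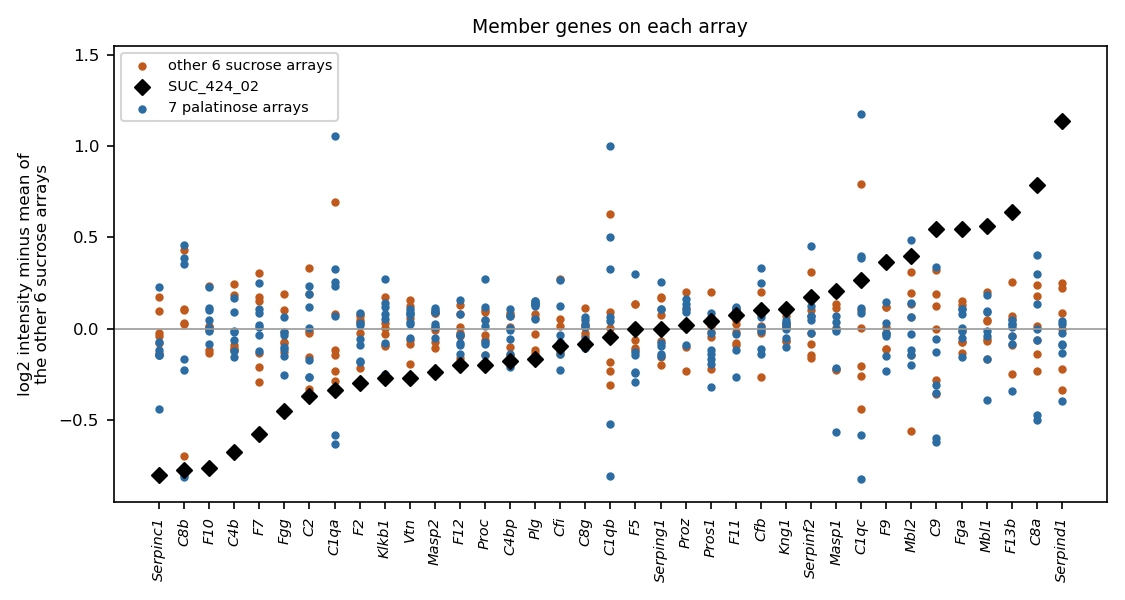
Each gene of the set on each array, as log2 intensity minus the mean of the 6 sucrose arrays other than SUC_424_02 (black diamonds), with the other sucrose arrays in orange and the palatinose arrays in blue. Genes are ordered by SUC_424_02, from Serpinc1 at -0.80 to Serpind1 at 1.14.

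Probes of 1 gene did not always move together. Of the 37 genes, 10 had several kept probes, 27 in all, which made 24 pairs of probes. Over 14 arrays 18 of these pairs correlated positively and 6 negatively, with a median r of 0.44, from -0.70 for Serpinc1 to 0.89 for Fga. In 6 of the 10 genes the probes gave diet differences of both signs. On SUC_424_02 one probe of Serpinc1 was lower by a difference of -0.80 than on the other sucrose arrays and the other higher by 0.87. The probes of Plg gave -0.17, -0.12 and 0.67 there, those of Kng1 0.11, -0.55 and 0.66, and those of Fga 0.55 and 0.41. In 6 of the 10 genes the probes deviated both ways on that array.

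The spread between mice was also set side by side for both classes. The median SD within a diet was 0.23 over the complement genes and 0.15 over the coagulation genes, beside 0.18 over all features. Without the C1q chains the complement median was 0.22, and 8 of 14 genes were above the median of all features, beside 5 of 20 coagulation genes. Without SUC_424_02 it was 0.17 for complement other than C1q, 0.12 for coagulation and 0.16 for all features. The lowest spreads were those of Kng1 at 0.06, C8g at 0.07, Plg at 0.09 and Masp2 at 0.09, and the highest outside C1q that of C8b at 0.50. These are descriptions of probes with different brightness, and no test was made between the classes.

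The median correlation between genes of the set was slightly above that of all features. After the diet mean was removed, the median r was 0.09 within complement, 0.12 within coagulation and 0.13 between them, beside 0.0021 over all pairs of features. Without SUC_424_02 these were 0.14, 0.23, 0.20 and 0.0010. Among pairs picked after their values were seen, C9 and F9 gave 0.84 and 0.81 without that array, and C9 and Serping1 0.84 and 0.93. Fga and Kng1 gave 0.81 and 0.82. By contrast F10 and Serpinc1 gave 0.81 and 0.35, and C4b and Fga -0.37 and 0.83. Of 36 listed pairs 23 could be tested, 6 passed an adjusted permutation p under 0.05 by Pearson's r, all positive, and 8 passed without SUC_424_02, 5 of them shared. By Spearman's rho 4 passed over 14 arrays.

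**Figure D5:**
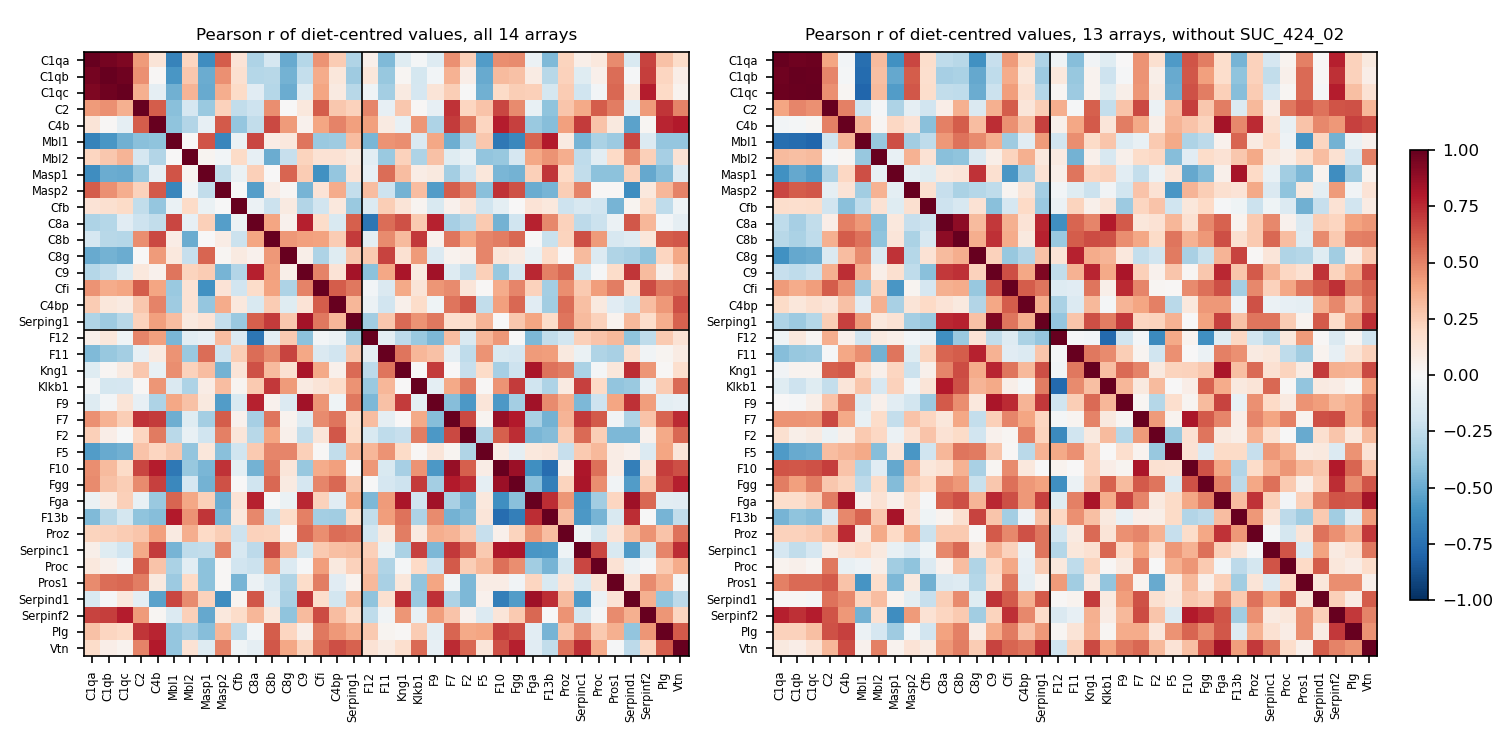
Pearson r of every pair of the 37 genes after the diet mean was removed, over 14 arrays (left) and over 13 arrays without SUC_424_02 (right), red positive and blue negative, with lines between complement and coagulation. The C1q block at the top left is present in both maps, and many pairs of coagulation genes are weaker or positive in the right map.

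Other genes of these pathways, not members of the set, were counted from lists. Of 15 other complement genes tested 4 were higher and 11 lower, with 1 at an unadjusted p under 0.05 in the lower direction, beside 3.35% of all features. That gene was Cr1l, a regulator that protects cells from complement, at -0.26 (-0.51 to -0.0048; adjusted p = 0.696 by limma). Next were C1s1, a protease of the C1 complex, at -0.27, and C6 of the pore complex at -0.29, and in the other direction Cpn1 at 0.23, Hc, the mouse C5 gene, at 0.17, and Cpn2 at 0.11. Cpn1 and Cpn2 encode the subunits of carboxypeptidase N, which inactivates complement anaphylatoxins. Of 15 other coagulation genes 6 were higher and 9 lower. Beside 7.10% of all features, 3 of the 15 genes had an unadjusted p under 0.05. Those were Plau, urokinase, at 0.20 (0.04 to 0.37), Tfpi, the tissue factor pathway inhibitor, at -0.31 (-0.58 to -0.03), and Hpn, the membrane protease hepsin, at -0.19 (-0.36 to -0.02), with adjusted p of 0.678, 0.681 and 0.682 by limma. Intensities of Plau were low, from 10 to 23. The other kept probes gave 0.07 and 0.08 for Hpn and -0.02 for Tfpi. Vkorc1 and Ggcx, the enzymes of the vitamin K cycle that the vitamin K-dependent factors need, gave 0.14 and -0.15. The other kept probes gave 0.01 and 0.09 for Vkorc1 and -0.06 and 0.26 for Ggcx. Serpina10, the inhibitor that works with protein Z, gave 0.11. SUC_424_02 held the lowest value of Cpn1, Hc, Vkorc1 and Serpina10 and the highest of C1s1, Cpn2 and Ggcx. Differences without that array are not given for these genes.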

How the data were processed

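Illumina MouseRef-8 v2 beadchips were read for 14 liver samples. The non-normalized table deposited by the authors holds an intensity and a detection p-value for each of 25697 probes and 14 arrays, per the file headers; negative intensities show that background had been subtracted. The table of normalized intensity values that the authors deposited for the series served as an alternative, and how it was normalized is not stated there. Columns of the non-normalized table name the diet and an array code but no replicate number, so arrays were grouped by diet and named by that code.

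Intensities were corrected and quantile normalized by neqc of limma 3.58.1 (R 4.3.3) with an offset of 16, and put on the log2 scale. Of the kept probes (11628) the brightest of each gene was tested with lmFit and eBayes, 7 arrays against 7, two-sided, Benjamini-Hochberg over 8829 features. Arrays have no counts, and their number limits precision. The titles call the samples biological replicates, and p-values measure the spread between these samples. No 2 arrays were identical.

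The members and lists were chosen with earlier results of these data known. Values by array are given for the 4 members with the smallest p in each direction, the chains of fibrinogen and C1q, and Mbl1 (C3 and Fgb, also listed, have no level), and from other lists the 3 smallest p in each direction are named. Correlations are Pearson and Spearman with 100000 resamples, exact within a diet, adjusted over 23 pairs. Of 36 pairs, 13 had a gene without a kept probe. Promoters come from RefSeq (GRCm38.p6). The limma fit was tested on simulated data. Samples with the same replicate number, in the authors' values, deviated together at -0.21 to 0.17, with 3 of 7 above 0.1. With no known pairs to compare, these values cannot show whether the numbers pair samples. The main fit used no pairing. No label or header names slides, so no slide block was run. Alternatives were background correction, normalization, source of values, detection filter, variance model, array weights, mean of probes, replicate block, column code as random block (statmod 1.5.0), and left-out arrays.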

Additional observations from a re-analysis of the deposited data

Results flagged for a closer look

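Of the 74 groups of 7 values (37 genes in 2 diets), 11 held an array whose gap to the nearest other array was a large share of the range of the group; chance flags about 1 in 20 groups, and genes on 1 array are not independent. The share of all features flagged in this way was not counted. Of the 11, 5 were on SUC_424_02, which held the highest or the lowest value of 44.5% of all features. There Fga was high at 14.25 and Serpind1 at 11.37, and C4b was low at 11.48, F10 at 10.61 and Serpinc1 at 7.85. On SUC_408_02, which also had the highest mean log2 intensity of macrophage markers, C1qa was high at 7.67 and C1qb at 9.05. On PAL_430_01 F13b was low at 10.04 and Serpinf2 high at 12.53. Serpind1 was low at 9.84 on PAL_418_07, and Plg was low at 12.91 on PAL_417_02, within a palatinose range of 12.91 to 13.01.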

How the results depend on the processing

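Over all 28 alternatives 0 of the 37 genes were called, and the lowest adjusted p of any was 0.208, for C9. Of all features 1 was called with no filter on detection and 0 under every other alternative. The number of the 37 genes at an unadjusted p under 0.05 was 1, and 0 with cyclic loess, median scaling or the mean of probes. It was 0 with the replicate number as a block on the authors' values, where 617 features had a p under 0.05. Leaving out each array in turn gave 1 to 2, beside 5.29% to 9.36% of all features. In place of Plg the gene was C9 without SUC_411_03 and Pros1 without SUC_415_02. The number was 2 (C9 and F5) without the arrays with muscle or pancreas markers, beside 10.5% of all features. It was 3 (C9, F5 and Serpinc1) without these and SUC_424_02, an alternative added after seeing the data, beside 11.6% of all features. The median difference ran from -0.08 to 0.03 for complement and from -0.05 to 0.01 for coagulation. Scaling turned the sign of Serping1 and F12, at 0.0023 and 0.0097 at first. By Pearson's r 5 to 8 pairs were called over 14 or fewer arrays of both diets, 5 within palatinose and 0 within sucrose, and by Spearman's rho 4 over 14 arrays. The correlation of C2 and C4b turned from 0.61 to -0.013 within palatinose. The cause of these changes was not tested. With the column code as a random block (consensus correlation 0.36, 5 arrays sharing 2 codes) the count at p under 0.05 was 1. No value was limited by depth; probes near background, such as those of Fgb and C1ra, gave no level.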

Other observations

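SUC_408_02 held the highest value of 8 of the 37 genes: C2, C4b, Cfi, F7, F10, Fgg, Pros1 and Proz. Of all 8829 features it held the highest value of 493. Relative to the mean of its diet, the median deviation on it was 0.17 over complement and 0.11 over coagulation genes, beside 0.0060 over all features. PAL_417_02 was below all other arrays in 6 genes (C8b, F5, F9, F11, Fga and Kng1), beside 492 of 8829 features. On PAL_417_02, 16 of 20 coagulation genes were below the mean of their diet, beside 52.9% of all features. Of 17 acute-phase genes tested, 13 were higher and 4 lower with palatinose, beside 54.8% of all features higher. Haptoglobin (Hp) alone had an unadjusted p under 0.05 by limma, at 0.16, beside 3.75% of all features in that direction, and 0 were called.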
